A study of Sus scrofa with 24 samples.

Results

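The comparison described here is that of a resveratrol-enriched grape extract, averaged over 2 diets, in peripheral blood mononuclear cells (PBMNCs) of pigs. It sets the 8 arrays of supplemented pigs against the 8 arrays of pigs fed the same diets without a supplement, 16 of the 24 arrays of the series. AD-GE-RES pigs ate an atherogenic diet with the enriched extract. CT-GE-RES pigs ate standard commercial chow with the same extract. AD pigs ate the atherogenic diet alone, and CT pigs the chow alone. The atherogenic diet held coconut oil at 10%, beef tallow at 5.5% and cholic acid at 1%. The extract was dosed at 1 g per 70 kg of body weight, which carried 18 mg of resveratrol per 70 kg. All groups were fed for 4 months, and each held 4 animals, 2 females and 2 males, with 1 array for each animal. The sources used here state neither breed nor age. Of each group, animals 1 and 2 were females and animals 3 and 4 males, numbered in accession order. The p-values of the linear models (limma) measure the spread between animals of a group, estimated from all 24 arrays. The comparison is the mean of the extract's differences on the 2 diets, which a difference on 1 diet alone can carry. The study's stated comparisons were made within each diet.

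PBMNCs are the white cells that stay at the interface of a density gradient, mainly T cells, B cells, natural killer cells and monocytes. They are drawn easily from blood and are used to read effects of diet on inflammation and vascular disease. Resveratrol is a stilbene made by grapevines and other plants. In other systems it is known to change the activity of sirtuins, of the kinase AMPK, of NRF2, which drives antioxidant genes, and of the aryl hydrocarbon receptor, which drives genes that metabolise foreign compounds.

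RNA was hybridised to Affymetrix porcine arrays, and every value below is the log2 of a deposited intensity. Array medians lay between 38.6 and 41.2 on the linear scale, and precision is limited by how many arrays there were. The defining markers of lymphocytes were bright, with CD3E, CD3D, CD2, LCK, CD79B, BLNK and CD8A between the 88.1 and 98.4 percentiles of all probe sets, as was the macrophage receptor CD163, while PRF1 of cytotoxic cells stood at the 45.4 and CD14 of monocytes at the 59.1 percentile. Red cell precursor genes were also bright, with ALAS2 at the 98.2 and AHSP at the 96.9 percentile, and the epithelial genes KRT8, EPCAM, KRT18 and CDH1 stood at 17.8, 41.3, 43.1 and 61.7. An array is one mixture of cells, so that fewer cells of a type and less RNA per cell cannot be told apart. CT animal 4 and AD-GE-RES animal 1 stood apart from the rest, with mean correlations to the other arrays of 0.957 and 0.968, against 0.974 or more in the others, and values without one or both are given beside the results that moved most without them. The log2 ratio of 3' to 5' signal of 3 control transcripts, a measure of RNA integrity and labelling, averaged 2.45 ± 1.03 in supplemented and 2.67 ± 1.07 in unsupplemented pigs (SD, n = 8 each). The difference of -0.22 had an exact permutation p of 0.679 within diet, where the smallest possible p is 0.000408. For spiked transcripts, controls added to the samples, the ratio differed by -0.12, with an exact permutation p of 0.714 within diet. Among compared arrays, this spiked ratio lay between 2.61 and 3.59 where the first ratio was 2.69 or more. It lay between 1.74 and 2.01 where the first ratio was 1.67 or less. What the first ratio owes to RNA integrity and what to labelling was not tested.

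Over both diets the extract went with small differences, and none passed the test. With limma, 0 of 17999 probe sets (0.0%) had an adjusted p under 0.05, and the smallest adjusted p was 0.769. An unadjusted p below 0.05 was found for 1044 probe sets (5.8%), and in supplemented pigs 472 of them (2.62%) were higher and 572 (3.18%) lower. In 98.0% of all probe sets the whole 95% interval of the difference lay within 2-fold. A joint limit on p (unadjusted, under 0.01) and size (at least 1.5-fold) left 7 probe sets, 3 of them higher and 4 lower. The named genes among them were ABCB1 and UCHL1, higher, and ACVR1B and CHI3L1, lower, and the other 3 had no gene name.

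The sign held on both diets for 10150 probe sets (56.4%). An unadjusted p under 0.05 on each diet in the same direction was found for 22 probe sets (0.122%), of which 5 (0.0278%) were higher and 17 (0.0944%) lower, against 5 (0.0278%) with opposite directions. The 8 supplemented and 8 unsupplemented arrays did not overlap at all in 3 probe sets (0.0167%), all lower with the extract and none with a gene name. The brightest of them lay between 9.63 and 10.09 in supplemented pigs and between 10.12 and 10.35 in unsupplemented pigs, a difference of -0.30 (SE 0.09). The gap between the groups was small against their ranges. Groups apart on each diet in the same direction numbered 6 probe sets (0.0333%), among them ARG2, lower, and THAP11, a transcription factor gene, higher by 0.13. UCHL1, THAP11 and the unnamed probe sets were chosen after their values were seen.

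ABCB1 had the smallest p of the named genes that were higher with the extract. It codes for P-glycoprotein, the pump that exports drugs and other foreign compounds from cells, lymphocytes included. Its log2 intensity was 6.37, 6.37, 6.34 and 6.78 in AD-GE-RES pigs and 6.76, 6.92, 6.60 and 6.56 in CT-GE-RES pigs, against 5.81, 5.40, 6.23 and 6.18 in AD pigs and 5.63, 6.66, 5.95 and 5.66 in CT pigs. Every AD-GE-RES animal was above every AD animal, while on chow CT animal 2 lay within the supplemented range. The mean was 6.59 ± 0.22 in supplemented and 5.94 ± 0.40 in unsupplemented pigs (SD, n = 8 each), a difference of 0.65 (SE 0.15, 1.57-fold, unadjusted p = 0.000288, adjusted p = 0.769 by limma). The difference was 0.56 on the atherogenic diet and 0.73 on chow, and 0.73 in females and 0.56 in males. Across all alternatives run it stayed between 0.52 and 0.77. It was 0.65 with the 3'/5' ratio as a covariate, 0.61 without CT animal 4 and AD-GE-RES animal 1, and 0.52 with the monocyte, B cell and erythroid list means as covariates. The groups with a single supplement, which are no part of the comparison, averaged 5.79 (AD-GE, the extract without added resveratrol) and 6.56 (AD-RES, resveratrol alone).

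CD38, an enzyme of the cell surface that breaks down NAD and marks activated lymphocytes, was also higher. Its values were 5.50, 6.48, 5.92 and 6.15 in AD-GE-RES pigs and 6.82, 6.61, 6.81 and 6.31 in CT-GE-RES pigs, against 5.91, 5.99, 5.96 and 4.95 in AD pigs and 5.95, 6.36, 5.95 and 6.08 in CT pigs. The groups overlapped on both diets. AD-GE-RES animal 1 was low for its group, and 3 of 4 CT-GE-RES animals were above all CT animals. The difference was 0.43 (SE 0.14, unadjusted p = 0.00642), with 0.31 on the atherogenic diet and 0.55 on chow.

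The other genes on the higher side act mostly inside the cell. GTPBP10, a GTPase of mitochondrial ribosome assembly, was 6.73, 7.28, 6.71 and 7.14 in AD-GE-RES pigs and 7.52, 7.23, 7.44 and 7.33 in CT-GE-RES pigs, against 5.94, 6.73, 6.70 and 6.89 in AD pigs and 7.26, 7.0, 6.30 and 6.87 in CT pigs. It differed by 0.46 (SE 0.14), by 0.46 in each sex, and the groups overlapped. UPF3B, a factor of nonsense-mediated mRNA decay, was 5.82, 6.21, 5.57 and 5.88 in AD-GE-RES pigs against 5.56, 5.29, 4.70 and 5.29 in AD pigs, with no overlap. On chow it was 5.64, 6.03, 6.39 and 5.67 in CT-GE-RES pigs against 5.47, 5.94, 5.73 and 5.57 in CT pigs, which overlapped. Only 3 of its 5 probe sets were higher, so that its difference of 0.46 (SE 0.15) holds for the probe set named. TXLNA, which binds syntaxins, was higher by 0.33 (SE 0.10) and PPP3CC, a catalytic subunit of the phosphatase calcineurin, by 0.38 (SE 0.12). RAD18, a ubiquitin ligase of DNA repair, was higher by 0.27 (SE 0.09), CFAP20, a ciliary protein gene, by 0.28, RPUSD3, of the pseudouridine synthase family, by 0.28, and DNTTIP1, part of a histone deacetylase complex, by 0.20. In CFAP20 the difference was 0.09 on the atherogenic diet and 0.46 on chow.

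ACVR1B had the smallest p of the named genes that were lower. It is a type I receptor for activins, hormones of the TGF-beta family. It was 7.10, 6.96, 6.31 and 6.48 in AD-GE-RES pigs and 6.80, 6.81, 6.70 and 7.17 in CT-GE-RES pigs, against 7.60, 7.68, 6.75 and 7.30 in AD pigs and 7.62, 7.33, 7.49 and 7.30 in CT pigs. On chow every supplemented animal was below every unsupplemented animal, while on the atherogenic diet AD animal 3 lay within the supplemented range. The mean was 6.79 ± 0.29 in supplemented and 7.38 ± 0.30 in unsupplemented pigs (SD, n = 8 each), a difference of -0.59 (SE 0.14, 0.664-fold, unadjusted p = 0.000436). The difference was -0.62 on the atherogenic diet and -0.56 on chow, and -0.64 in females and -0.54 in males. Under the alternatives run it lay between -0.68 and -0.41, and -0.41 was the value with the 3 cell type list means as covariates.

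INHBB codes for the subunit that pairs to form activin B, a ligand of such receptors, and was dim on these arrays. It was 3.80, 3.41, 3.31 and 3.46 in AD-GE-RES pigs and 3.64, 3.51, 3.44 and 3.27 in CT-GE-RES pigs, against 3.71, 3.72, 3.70 and 3.95 in AD pigs and 3.81, 3.73, 3.58 and 3.85 in CT pigs. AD-GE-RES animal 1 and CT-GE-RES animal 1 lay within the unsupplemented range, and the other 6 supplemented animals were below all unsupplemented animals. The difference was -0.28 (SE 0.09, unadjusted p = 0.00587). LFNG, a glycosyltransferase that modifies Notch receptors, averaged 3.94 ± 0.27 in supplemented and 4.34 ± 0.31 in unsupplemented pigs (SD, n = 8 each) in a dim probe set, a difference of -0.40 (SE 0.10). The brighter probe sets of LFNG, with means of 10.08 and 7.38, differed by -0.06 and 0.01, so that the probe sets of this gene disagreed.

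ARG2, the mitochondrial arginase, which takes arginine away from nitric oxide synthesis, was apart between the groups on each diet, in a dim probe set. It was 3.82, 3.69, 3.82 and 3.52 in AD-GE-RES pigs against 3.85, 3.91, 3.86 and 3.92 in AD pigs. On chow it was 3.41, 3.83, 3.89 and 3.91 in CT-GE-RES pigs against 4.26, 4.06, 4.07 and 3.98 in CT pigs. Neither pair of groups overlapped, although the closest animals on the atherogenic diet were at 3.82 and 3.85. Over both diets the groups did overlap, and the difference was -0.25 (SE 0.08, unadjusted p = 0.00316). All 3 probe sets of ARG2 were lower, the others by -0.10 each. LOXL4, of the lysyl oxidase family that crosslinks collagen, held nearly the same value in the AD-GE-RES pigs, at 5.04, 5.01, 5.02 and 5.03, against 5.34, 5.12, 5.15 and 5.30 in AD pigs. Its difference over both diets was -0.24 (SE 0.07), and all 3 of its probe sets were lower.

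The remaining genes on the lower side were C1QTNF5, a secreted C1q-like protein gene (-0.33), UPTI, the pig uterine plasmin and trypsin inhibitor (-0.31), MC2R, the receptor for corticotropin (-0.36), SCAMP4, a secretory carrier membrane protein gene (-0.42), MBNL3, an RNA-binding splicing factor gene (-0.29), and FAM151B, C14H1orf198 and LOC100525750 (-0.49, -0.29 and -0.23). FAM151B differed by -0.12 in females and by -0.86 in males. The 23 genes named by these differences were chosen for them, so that their shared sign on both diets and in both sexes describes the choice. The groups did not overlap in 7 of the 23 on the atherogenic diet and in 7 on chow, where the background over all probe sets was 1.26% and 4.03%. A choice by small p favours groups that lie apart, so that this excess describes the choice as well. Sizes lay between 0.20 and 0.65.

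**Figure D1:**
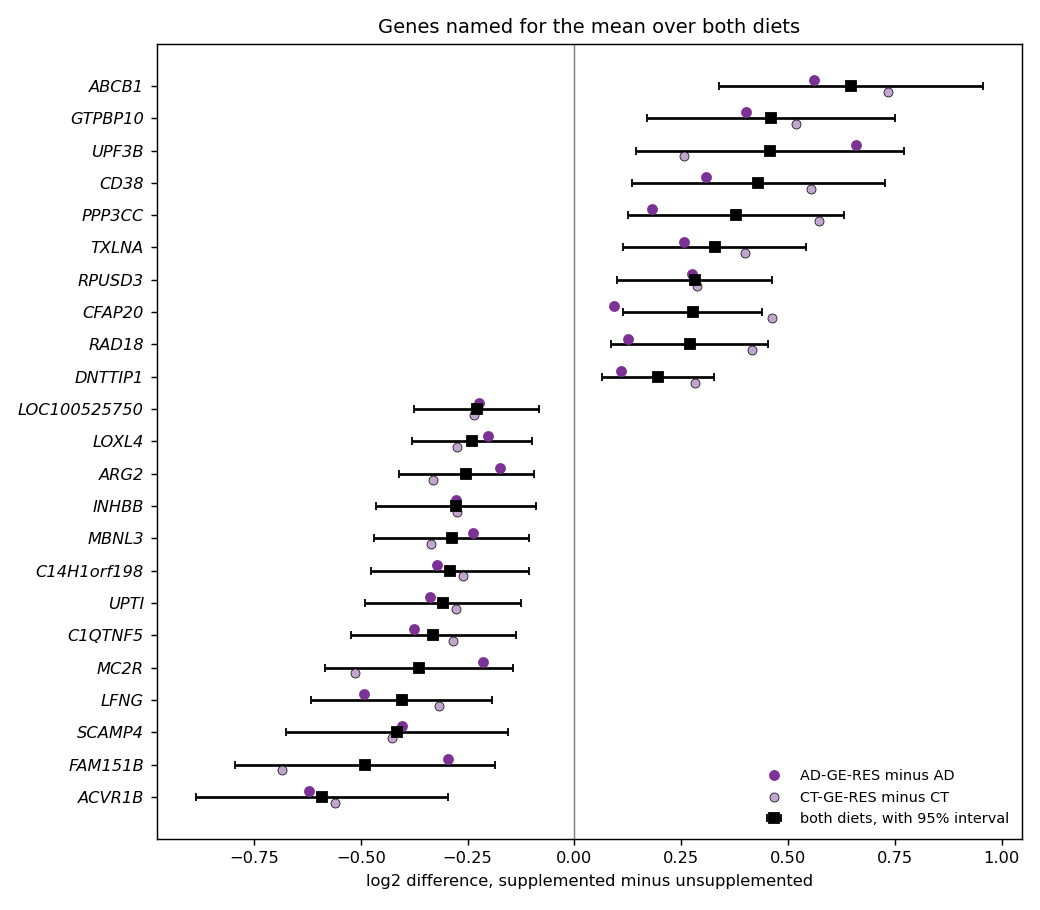
Difference in log2 intensity, supplemented minus unsupplemented pigs, of 23 genes, the 10 with the smallest p in each direction and 3 further lower genes with an unadjusted p under 0.05 on each diet; the large points are the averages over both diets with 95% intervals, and the small ones the differences on the atherogenic diet and on chow. ABCB1 at 0.65 and ACVR1B at -0.59 lie farthest from 0, and the differences on the 2 diets have the same sign in every gene.

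The early response genes and those of myeloid cells were mostly lower with the extract. Among immediate early genes, which code for transcription factors and regulators made within minutes of a stimulus, 20 of 25 measured genes were lower and 5 higher, with a median difference of -0.26 against 0.04 over all 6033 genes, of which 36.9% were lower. On both diets 16 were lower, against 21.5% of all genes. None was called, and 3 were lower at an unadjusted p under 0.05, against 2.42% of all genes. EGR1, a zinc finger factor, was 9.60, 8.89, 7.03 and 10.18 in AD-GE-RES pigs and 10.35, 10.06, 6.46 and 9.72 in CT-GE-RES pigs, against 10.44, 10.36, 9.66 and 9.70 in AD pigs and 10.92, 10.54, 10.09 and 9.60 in CT pigs. Animal 3 of each supplemented group was far below all others, and the remaining supplemented animals overlapped with the unsupplemented ones. The mean was 9.04 ± 1.49 in supplemented and 10.16 ± 0.48 in unsupplemented pigs (SD, n = 8 each), a difference of -1.13 (SE 0.44, unadjusted p = 0.0185), and all 3 probe sets of EGR1 were lower.

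The mean of the immediate early list in each animal, taken relative to the mean of each gene over the 24 arrays, was 0.61, -0.35, -0.24 and 0.07 in AD-GE-RES pigs and -0.10, -0.15, -0.66 and -0.04 in CT-GE-RES pigs, against 0.21, 0.29, 0.25 and 0.27 in AD pigs and 0.23, 0.13, -0.09 and -0.24 in CT pigs. AD-GE-RES animal 1 was the highest of the 16, and the other 3 of its group lay below all AD animals. Without that animal 22 of the 25 genes were lower, with a median of -0.30 and 9 at an unadjusted p under 0.05, against 5.82% of all genes in that fit. Without CT-GE-RES animal 3, whose mean was lowest, the median was -0.15 with 1 gene at that p, against 1.56% of all genes, and without AD-GE-RES animal 2 it was -0.13.

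Of 22 measured monocyte genes 18 were lower, the median was -0.22, 15 were lower on both diets, and 2 were lower at an unadjusted p under 0.05, against 2.42% of all genes. CEBPB, a transcription factor of myeloid cells, was 12.28, 11.68, 11.85 and 12.17 in AD-GE-RES pigs and 11.42, 11.11, 11.17 and 12.27 in CT-GE-RES pigs, against 12.18, 12.09, 12.31 and 12.38 in AD pigs and 12.40, 12.22, 11.94 and 12.02 in CT pigs. In 5 of the 8 supplemented animals it was below the whole unsupplemented range, and the difference was -0.45 (SE 0.17, unadjusted p = 0.0141). Its relative CEBPD was 10.71, 10.59, 10.40 and 10.41 in AD-GE-RES pigs and 10.39, 10.53, 10.38 and 10.99 in CT-GE-RES pigs, against 11.01, 11.09, 10.76 and 10.76 in AD pigs and 11.15, 11.15, 10.68 and 10.63 in CT pigs. Every AD-GE-RES animal was below every AD animal, and the difference over both diets was -0.35 (SE 0.12, unadjusted p = 0.00842). S100A9, a calcium-binding alarm protein of monocytes and neutrophils, differed by -0.99 (SE 0.50, unadjusted p = 0.0605). Of the remaining members, CD14, the co-receptor for endotoxin, differed by -0.05, with -0.65 on the atherogenic diet and 0.56 on chow, and the surface receptors CD163 and FCGR3A by -0.12 and 0.18. With AD-GE-RES animal 1 left out, 20 of 22 monocyte genes were lower and 10 were at an unadjusted p under 0.05 (median -0.36), against 5.82% of all genes in that fit, and without CT-GE-RES animal 3 the median was -0.13.

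All 10 measured neutrophil genes were lower, with a median of -0.28, and 7 were lower on both diets. Dim members were among the 10, and the median was -0.79 with the lowest 50% of probe sets left out. CHI3L1, NPG4 and PRTN3 were lower at an unadjusted p under 0.05, as 2.42% of all genes were. CHI3L1, a chitinase-like protein stored in neutrophil granules, was 7.96, 6.96, 7.15 and 6.17 in AD-GE-RES pigs and 6.73, 6.83, 6.08 and 8.49 in CT-GE-RES pigs, against 9.11, 7.96, 7.80 and 7.47 in AD pigs and 8.46, 7.98, 7.76 and 7.74 in CT pigs. In 6 of 8 supplemented animals it was below all unsupplemented animals, and CT-GE-RES animal 4 was high, for a difference of -0.99 (SE 0.34, 0.503-fold, unadjusted p = 0.00841). NPG4, the precursor of the antimicrobial peptide protegrin 4, was 6.66, 7.67, 6.80 and 7.05 in AD-GE-RES pigs and 5.49, 5.64, 7.66 and 5.80 in CT-GE-RES pigs, against 9.40, 7.96, 6.55 and 7.55 in AD pigs and 6.31, 6.44, 7.58 and 10.96 in CT pigs. The groups overlapped, CT animal 4 was by far the highest, and the difference was -1.25 (SE 0.58, unadjusted p = 0.043), or -0.73 without CT animal 4 and -0.67 without it and AD-GE-RES animal 1. The protease gene PRTN3 differed by -0.24 (SE 0.09), lactoferrin (LTF) by -1.15 and ARG1, the cytosolic arginase, by -0.60. The neutrophil list mean of CT animal 4 was 1.28, against at most 0.85 in any other animal of the 4 groups, and without that animal all 10 genes were still lower, with a median of -0.15. Granulocytes belong below the gradient interface, and what the level of these genes owes to them was not tested.

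Genes that type I interferon induces against viruses made up the third group on the lower side. Of 23 measured, 17 were lower and 6 higher, with a median of -0.37, the same group lying at -0.45 on the atherogenic diet and -0.30 on chow. On both diets 14 were lower, and 5 were lower at an unadjusted p under 0.05, against 2.42% of all genes. EIF2AK2, the kinase PKR that senses double-stranded RNA, was 7.76, 7.89, 8.14 and 8.36 in AD-GE-RES pigs and 7.84, 7.97, 7.94 and 8.25 in CT-GE-RES pigs, against 8.27, 8.24, 8.52 and 8.47 in AD pigs and 8.58, 7.86, 8.0 and 8.84 in CT pigs. The ranges overlapped on both diets, and the difference was -0.33 (SE 0.11, unadjusted p = 0.00873). RSAD2, the antiviral protein viperin, was 8.32, 8.26, 7.84 and 8.27 in AD-GE-RES pigs and 8.05, 8.40, 8.76 and 8.87 in CT-GE-RES pigs, against 8.32, 8.41, 8.77 and 9.25 in AD pigs and 9.78, 8.56, 8.35 and 10.32 in CT pigs. CT animals 1 and 4 were high, and the difference was -0.62 (SE 0.25, unadjusted p = 0.0219). IFIT2, which binds viral RNA, differed by -0.65 (SE 0.29) and IRF7, the factor that amplifies interferon production, by -0.51. MX1 and MX2, GTPases that trap viral particles, differed by -0.56 and -0.64, ISG15, a ubiquitin-like modifier, by -0.64, and OAS1, an RNA sensor, by -0.91. The 6 higher members were GBP1 and GBP2, which interferon gamma induces, at 0.23 and 0.19, and SAMHD1, IRF1, PARP9 and SP110 at 0.11, 0.06, 0.04 and 0.03.

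The interferon list mean was -0.03, -0.40, -0.19 and -0.25 in AD-GE-RES pigs and -0.05, -0.07, 0.06 and 0.45 in CT-GE-RES pigs, against -0.05, 0.09, 0.25 and 0.48 in AD pigs and 0.89, -0.18, -0.29 and 0.81 in CT pigs. On the atherogenic diet AD-GE-RES animal 1 reached the lowest AD animal and the other 3 lay below them all. On chow CT animals 1 and 4 were high and the other 2 CT animals low. Without CT animal 4, 18 of 23 genes were lower, with a median of -0.30 and 1 gene at an unadjusted p under 0.05, against 1.46% of all genes, and without CT animal 1 the median was -0.24.

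These lists were recomputed with cell type markers in the model. With the monocyte, B cell and erythroid list means as covariates, the median was -0.04 for immediate early genes, -0.08 for interferon genes and -0.11 for neutrophil genes, while the monocyte list was near 0 by construction. In that fit EGR1 differed by -0.57 and CHI3L1 by -0.55.

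**Figure D2:**
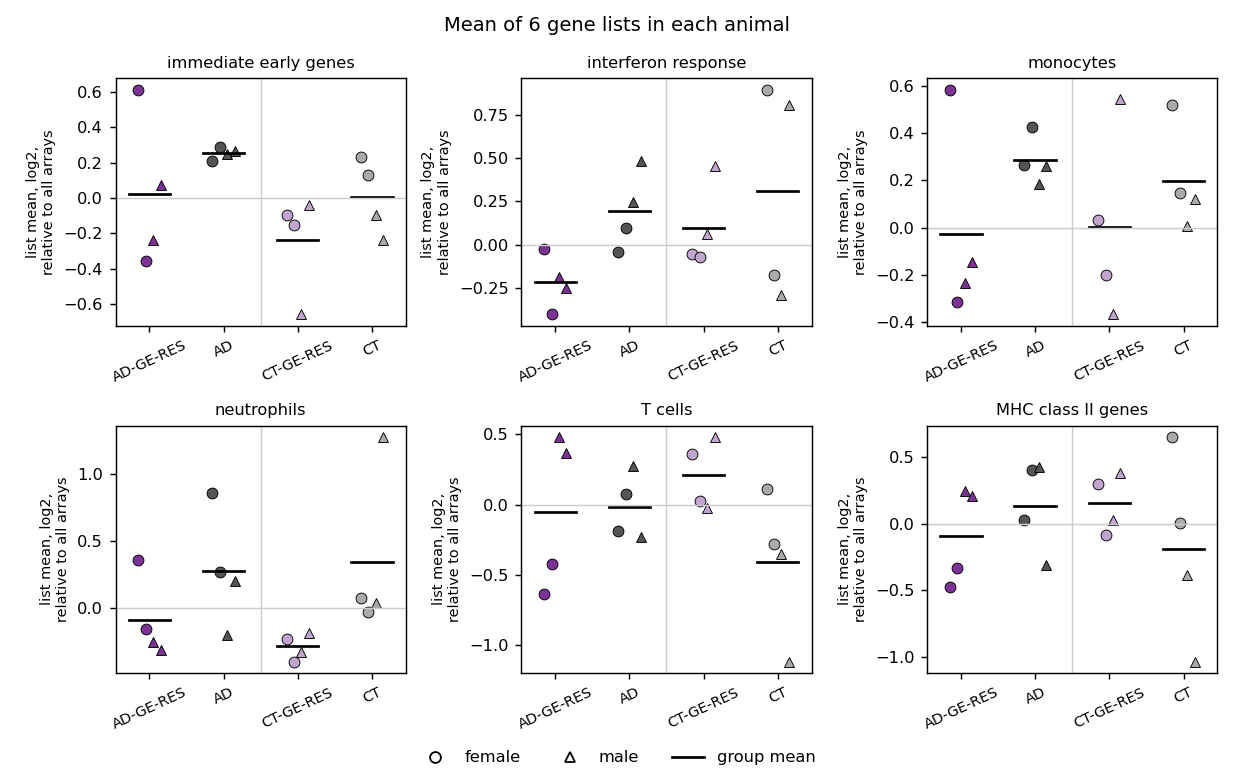
Mean of 6 gene lists in each animal, in log2 intensity relative to the mean of each gene over the 24 arrays, in AD-GE-RES, AD, CT-GE-RES and CT pigs; circles are females, triangles males and lines group means. The neutrophil list of CT animal 4 at 1.28 and the immediate early list of AD-GE-RES animal 1 at 0.61 stand apart, and the groups overlap in most lists.

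Genes of T cells were mostly higher with the extract, on chow and in males. Of 13 measured 12 were higher, 3 of them at an unadjusted p under 0.05 (3.56% of all genes), and the median was 0.31, but the median was -0.01 on the atherogenic diet and 0.42 on chow. LCK, the kinase that starts signalling at the T cell receptor, was 9.91, 10.94, 10.95 and 10.66 in AD-GE-RES pigs and 10.61, 10.82, 11.07 and 10.83 in CT-GE-RES pigs, against 10.44, 10.10, 10.37 and 10.24 in AD pigs and 10.47, 10.61, 10.37 and 10.35 in CT pigs. AD-GE-RES animal 1 was the lowest of all, CT-GE-RES animal 1 was level with the highest unsupplemented animal, and the other 6 supplemented animals were above all unsupplemented ones. The mean was 10.72 ± 0.36 in supplemented and 10.37 ± 0.15 in unsupplemented pigs (SD, n = 8 each), a difference of 0.35 (SE 0.12, 1.28-fold, unadjusted p = 0.0086), with 0.33 on the atherogenic diet and 0.38 on chow. CD3G, a chain of the T cell receptor complex, was higher by 0.41 (SE 0.18), with 0.11 on the atherogenic diet and 0.70 on chow, and LAT, the adaptor downstream of the receptor, by 0.31 (SE 0.13). CD2 and CD3D, further surface markers of T cells, differed by 0.51 and 0.49, with -0.32 and -0.21 on the atherogenic diet and 1.33 and 1.20 on chow.

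The list mean of T cell genes was -0.64, -0.42, 0.48 and 0.37 in AD-GE-RES pigs and 0.36, 0.02, -0.03 and 0.48 in CT-GE-RES pigs, against -0.19, 0.07, 0.27 and -0.23 in AD pigs and 0.11, -0.28, -0.35 and -1.12 in CT pigs. Within AD-GE-RES the females were low and the males high, and CT animal 4 was the lowest of all. The list mean was at most 0.02 in every compared animal with a 3'/5' ratio of 2.69 or more. In all other compared animals, with ratios of 1.67 or less, it was at least 0.07. With the ratio as a covariate the median was 0.23, with 12 of 13 higher. In that fit 4 were higher at an unadjusted p under 0.05, against 267 of all 6033 genes. What the differences by diet and sex owe to the ratio was not tested. Without CT animal 4 the median was 0.21 with 11 of 13 higher, and 0.34 on chow. In that fit 1 of the 13 was higher at an unadjusted p under 0.05, against 138 of all 6033 genes. Without CT animal 4 and AD-GE-RES animal 1 the median was 0.29 with 11 of 13 higher, 5 of them at that p, against 8.37% of all genes. Among cytotoxic and natural killer cell genes 6 of 7 were higher, and their median of 0.24 was 0.14 without CT animal 4. It was -0.02 on the atherogenic diet and 0.41 on chow. Among B cell genes 5 of 6 were higher, and their median of 0.03 was -0.02 with repeated quantile normalization, 0.17 without AD-GE-RES animal 1 and 0.25 without it and CT animal 4.

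Red cell precursor genes ran the other way, with 8 of 9 lower and a median of -0.47, -0.17 on the atherogenic diet and -0.70 on chow. AHSP, the chaperone of alpha globin, and ALAS2, the rate-limiting enzyme of haem synthesis in red cell precursors, differed by -0.85 and -0.63, and the haemoglobin genes HBM and HBE1 by -0.74 and -0.75, where HBM was -0.37 without CT animal 4 and AD-GE-RES animal 1. FECH and KLF1 differed by -0.47 and -0.25, or by -0.21 and -0.07 without both arrays. The haemoglobin gene HBB went the other way, averaging 8.61 in supplemented and 8.54 in unsupplemented pigs. None of the 9 reached an unadjusted p under 0.05. The erythroid list mean of CT animal 4 was 1.60, the highest of the 4 groups, and without it the median was -0.27, and -0.30 on chow. Platelet genes were split 6 to 6.

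**Figure D3:**
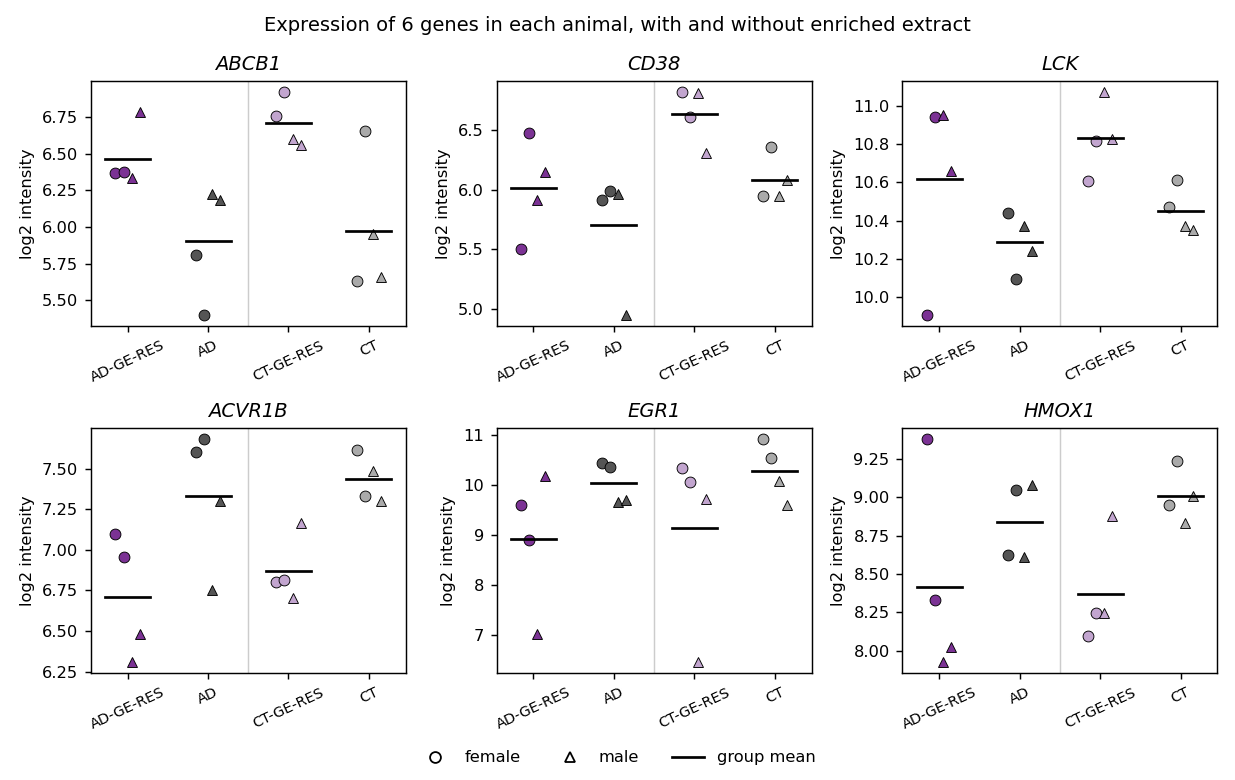
Log2 intensity of ABCB1, CD38, LCK, ACVR1B, EGR1 and HMOX1 in each animal of the AD-GE-RES, AD, CT-GE-RES and CT groups; circles are females, triangles males and lines group means. ABCB1 in AD-GE-RES pigs at 6.34 to 6.78 lies above AD pigs at 5.40 to 6.23, and EGR1 of animal 3 lies at 7.03 in AD-GE-RES and 6.46 in CT-GE-RES.

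Genes of the pathways that resveratrol is known for had medians near that of all genes. Of 31 measured NRF2 and antioxidant genes 14 were higher and 17 lower, with a median of -0.05. The split depended on the arrays that stood apart, with 10 higher and 21 lower without AD-GE-RES animal 1, and 7 higher and 24 lower, with a median of -0.08, without it and CT animal 4. HMOX1, the haem oxygenase that NRF2 induces and that macrophages use to break down haem, was 9.38, 8.33, 7.93 and 8.02 in AD-GE-RES pigs and 8.10, 8.25, 8.24 and 8.88 in CT-GE-RES pigs, against 8.62, 9.05, 8.61 and 9.08 in AD pigs and 8.95, 9.23, 8.83 and 9.0 in CT pigs. AD-GE-RES animal 1 was the highest of all 16 and the other 3 of its group lay below all AD animals. The difference was -0.53 (SE 0.21, 0.692-fold, unadjusted p = 0.0213), and it was -0.30 with the cell type list means as covariates. GPX4, which reduces lipid peroxides, was 0.27 higher (SE 0.11, unadjusted p = 0.029) and SOD3, the extracellular superoxide dismutase, differed by -0.32, or by -0.15 without both arrays that stood apart. SOD2, the mitochondrial form, differed by -0.29 (SE 0.14, unadjusted p = 0.0571).

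Of 18 sirtuin, AMPK and FOXO genes 13 were higher, with a median of 0.06, close to the 0.04 of all genes. SIRT1 and NFE2L2, the gene of NRF2, had no probe set with that symbol alone. Of 13 genes of the aryl hydrocarbon receptor and xenobiotic metabolism 6 were higher and 7 lower, with a median of -0.02. ABCB1 and MAOB (0.26) were the members at an unadjusted p under 0.05, both higher, against 3.56% of all genes. ABCB1 had already been named for its small p. Lipid genes were near 0 as groups, with medians of 0.04 for cholesterol efflux and lipid receptors (8 of 15 higher, and a median of -0.01 with repeated quantile normalization), 0.09 for sterol synthesis (8 of 15, and a median of -0.01 without CT-GE-RES animal 3, without CT animal 4, or without CT animal 4 and AD-GE-RES animal 1) and 0.03 for fatty acid metabolism (22 of 33). ABCA1, the transporter that loads cholesterol onto lipoproteins, was 7.44, 6.77, 6.25 and 7.24 in AD-GE-RES pigs against 6.84, 6.06, 5.47 and 6.78 in AD pigs, and 5.92, 6.93, 6.63 and 6.25 in CT-GE-RES pigs against 7.32, 7.05, 6.91 and 6.24 in CT pigs. The groups overlapped on both diets, and the differences of 0.64 and -0.45 averaged to 0.10 (SE 0.22). CYP27A1, which makes an oxysterol from cholesterol, differed by -0.26, PLTP, the phospholipid transfer protein, by 0.13, ACADVL, an enzyme of fatty acid oxidation, by 0.16 and the mitochondrial carrier UCP3 by -0.28.

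Cytokine genes varied widely between animals of a group. Of 24 inflammatory cytokine and NF-kB target genes 7 were higher and 17 lower, with a median of -0.12 and 0 at an unadjusted p under 0.05. Without AD-GE-RES animal 1 the list had 3 higher and 21 lower, with a median of -0.23 and 7 lower at that p, against 5.82% of all genes in that fit. Without it and CT animal 4 the median was -0.26 with 7 lower at that p, against 4.56% of all genes, and without CT-GE-RES animal 3 it was -0.03, with 11 higher and 13 lower. IL1B differed by -0.14 (SE 0.39), TNF by 0.00 (SE 0.21), CXCL8, the neutrophil attractant, by -0.61 (SE 0.64), and CCL2, the monocyte attractant, by 0.14 (SE 0.25). ICAM1, an adhesion molecule, differed by -0.24 (SE 0.22) and PTGS2, the inducible cyclooxygenase, by -0.46 (SE 0.31). Each of these differences was under 1.5 times its SE. Without CT animal 4 and AD-GE-RES animal 1 they were -0.46 for IL1B, -1.49 for CXCL8, -0.52 for ICAM1, -0.82 for PTGS2, -0.10 for TNF and -0.12 for CCL2, and CXCL8 was -0.19 with the cell type list means as covariates. Adhesion and migration genes were split 8 higher and 12 lower, with a median of -0.03. CD36 had no probe set with that symbol alone.

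Of 17 genes that glucocorticoids induce 14 were lower, the median was -0.14, and 12 were lower on both diets. The median was -0.25 without CT-GE-RES animal 4, -0.24 without AD-GE-RES animal 1 and -0.29 without AD-GE-RES animal 1 and CT animal 4. FKBP5, a co-chaperone that restrains the glucocorticoid receptor, was 9.16, 8.59, 8.22 and 8.60 in AD-GE-RES pigs against 9.78, 9.57, 8.65 and 9.55 in AD pigs, and 8.82, 8.76, 8.79 and 8.83 in CT-GE-RES pigs against 8.58, 9.11, 8.78 and 9.22 in CT pigs. The groups overlapped, and the difference was -0.75 on the atherogenic diet and -0.12 on chow, for an average of -0.43 (SE 0.16, unadjusted p = 0.0147). A dimmer probe set of FKBP5 differed by -0.72 and 0.22. KLF9, a factor induced by glucocorticoids, was 9.52, 7.63, 8.45 and 8.09 in AD-GE-RES pigs and 7.21, 7.12, 7.89 and 8.20 in CT-GE-RES pigs, against 8.44, 8.28, 9.05 and 9.21 in AD pigs and 7.87, 8.87, 8.33 and 8.21 in CT pigs. AD-GE-RES animal 1 was the highest, and the difference was -0.52 (SE 0.22), or -0.74 without that animal and -0.80 without it and CT animal 4. CEBPD, given above, also belongs to the list, and SGK1, a kinase induced by glucocorticoids, differed by -0.30.

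Genes of housekeeping complexes had small positive medians. Of 35 proteasome genes 34 were higher, with a median of 0.11 that was -0.02 on the atherogenic diet and 0.23 on chow. PSMD2, a subunit of the regulatory particle, lay between 9.04 and 9.46 with a median of 9.33 in supplemented pigs, and between 8.98 and 9.35 with a median of 9.11 in unsupplemented pigs, a difference of 0.16 (SE 0.07). Oxidative phosphorylation genes were higher in 45 of 52 (median 0.07) and ribosomal protein genes in 53 of 59 (median 0.03), where 63.1% of all genes were higher. Higher on both diets were 22 of the 52 and 25 of the 59, against 2244 of all 6033 genes. The ribosomal median lay below the 0.04 of all genes. Of 25 cell cycle genes 22 were higher, with a median of 0.24 that was 0.08 on the atherogenic diet and 0.30 on chow. CDC25B, the phosphatase that opens entry into mitosis, lay between 10.74 and 11.35 with a median of 10.97 in supplemented pigs, against 10.41 to 10.86 with a median of 10.71 in unsupplemented pigs, a difference of 0.30 (SE 0.11). AD-GE-RES animal 1 alone lay within the range of the unsupplemented pigs. At an unadjusted p under 0.05, 1 of them was higher. The cell cycle median was 0.13 without CT-GE-RES animal 3 and 0.11 without CT animal 1, and without CT animal 4 and AD-GE-RES animal 1 it was 0.38, with 10 genes higher at an unadjusted p under 0.05, against 8.37% of all genes in that fit. Of 28 heat shock and chaperone genes 19 were higher (median 0.07), and 4 were higher at an unadjusted p under 0.05, against 3.56% of all genes: DNAJA4, DNAJB6 and DNAJA2, which guide HSP70, at 0.32, 0.21 and 0.21, and the factor HSF2 at 0.28. The medians of endoplasmic reticulum stress, apoptosis, nuclear receptor and circadian clock genes were 0.06, -0.01, -0.04 and 0.04, and 13 of 14 MHC class I presentation genes were higher (median 0.13). The MHC class I median was -0.002 on the atherogenic diet and 0.23 on chow, and 0.06 without AD animal 4. Such small medians depended on scaling. Those of proteasome, oxidative phosphorylation and heat shock genes were 0.07, 0.03 and 0.03 with repeated quantile normalization. With median centring they were 0.13, 0.08 and 0.08.

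**Figure D4:**
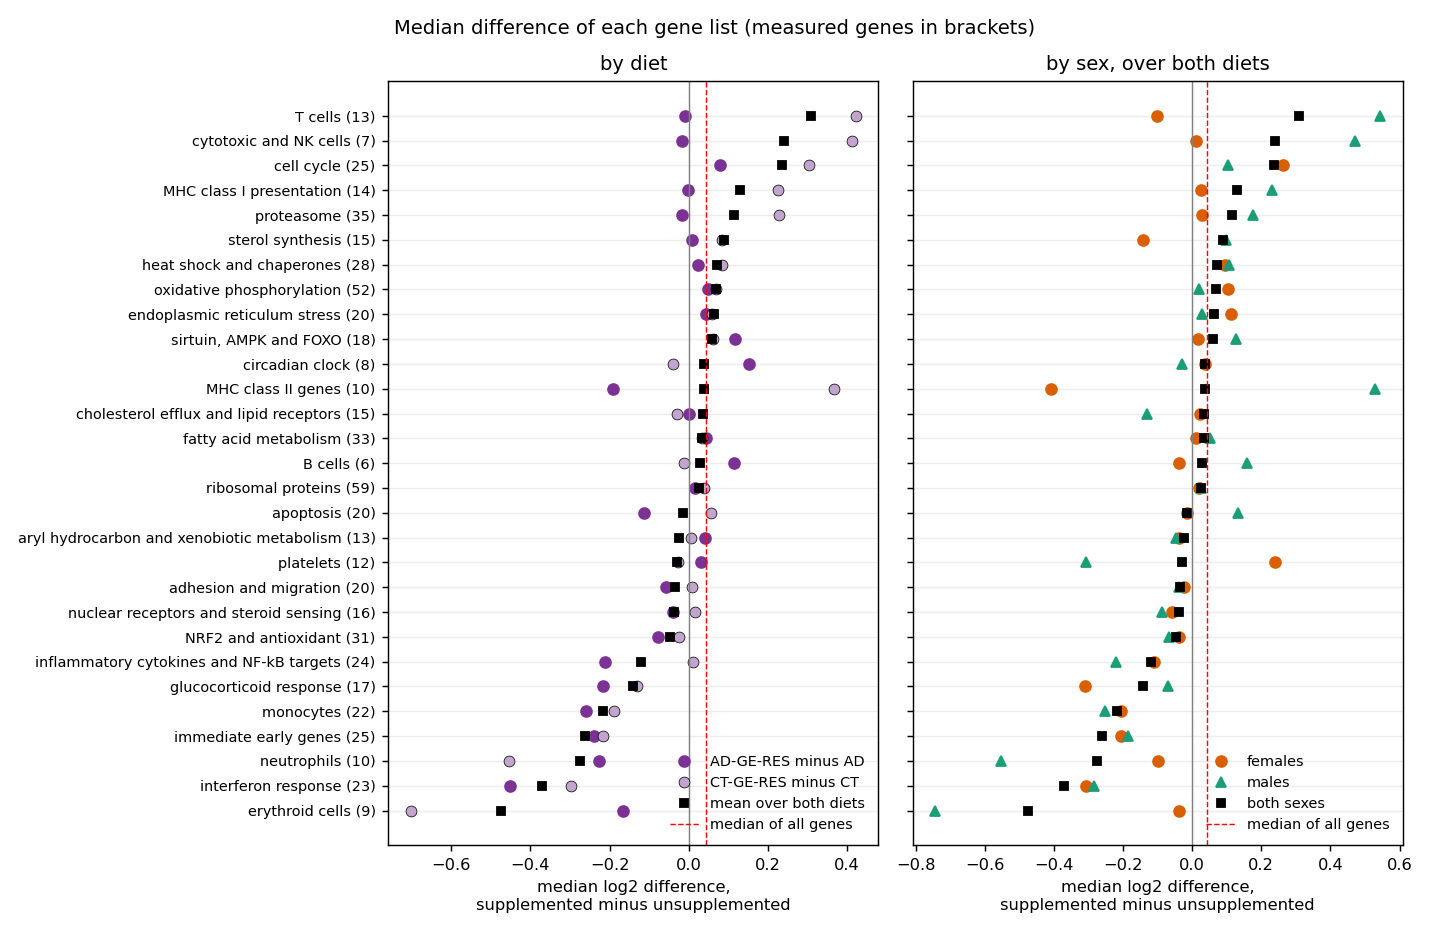
Median difference in log2 intensity, supplemented minus unsupplemented pigs, of 29 gene lists, given by diet and by sex; the dashed line marks the median of all genes at 0.04. Erythroid genes lie at -0.70 on chow and -0.74 in males, neutrophil genes at -0.55 and T cell genes at 0.54 in males, and MHC class II genes at -0.41 in females and 0.53 in males.

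The extract's difference was then compared between the diets, as atherogenic diet minus chow. No probe set was called on the atherogenic diet (0.0%), on chow (0.0%) or for the difference between them (0.0%) by limma, with 432 (2.4%), 1224 (6.8%) and 561 (3.12%) at an unadjusted p under 0.05. GLB1, the lysosomal beta-galactosidase, was 8.45, 8.33, 7.69 and 8.24 in AD-GE-RES pigs against 7.75, 8.02, 7.92 and 7.50 in AD pigs, and 7.77, 7.80, 7.61 and 7.94 in CT-GE-RES pigs against 7.88, 8.36, 8.18 and 8.42 in CT pigs. It was thus 0.38 higher on the atherogenic diet, with overlap, and differed by -0.43 on chow, where CT animal 1 alone lay within the supplemented range. CTLA4, the inhibitory receptor of T cells, was 3.94, 3.88, 4.11 and 3.97 in AD-GE-RES pigs against 4.29, 4.32, 4.39 and 4.01 in AD pigs, and 5.24, 4.77, 4.25 and 4.06 in CT-GE-RES pigs against 3.78, 3.88, 4.03 and 3.90 in CT pigs. This probe set was dim. The chow groups did not overlap, with the closest animals at 4.06 and 4.03, and the differences were -0.28 and 0.68. CXCR6, a chemokine receptor of T cells, differed by -0.23 on the atherogenic diet and 0.54 on chow, where every CT-GE-RES animal was above every CT animal. OCRL, an inositol polyphosphate phosphatase, differed by 0.08 and -0.38, SSBP2, which binds single-stranded DNA, by 0.20 and -0.39, CTR9, of the PAF1 complex of transcription, by 0.40 and -0.25, and PNO1, of ribosome assembly, by -0.22 and 0.35.

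Between the sexes the extract's difference passed the test in 3 of 17999 probe sets (0.0167%), by limma in a model with a mean for each diet and sex. Within females 0 probe sets (0.0%) were called and 879 (4.88%) were at an unadjusted p under 0.05, and within males 0 (0.0%) were called, with a smallest adjusted p of 0.0540, and 3528 (19.6%) were at that p. For the difference between the sexes, females minus males, 2772 probe sets (15.4%) had an unadjusted p below 0.05, with 1122 (6.23%) above 0 and 1650 (9.17%) below 0. Of all probe sets, 55.6% had opposite signs in the sexes, and 136 (0.756%) were at an unadjusted p under 0.05 in each sex with opposite signs, against 29 (0.161%) with the same sign. Each sex and group held 2 animals.

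MTMR6, a phosphatase of phosphoinositides in membranes, was 8.74 and 8.09 in AD-GE-RES females and 7.79 and 8.10 in CT-GE-RES females, against 7.92 and 8.27 in AD females and 9.0 and 9.27 in CT females. In males it was 8.98 and 8.57 in AD-GE-RES and 9.32 and 9.33 in CT-GE-RES, against 8.33 and 8.64 in AD and 7.70 and 7.66 in CT. The sexes went opposite ways on chow only, with females low and males high under the extract and no overlap in either sex. On the atherogenic diet the groups overlapped in both sexes, and both sexes were higher on average with the extract. Averaged over both diets, the extract's difference was -0.44 in females and 0.96 in males. It differed between the sexes by -1.40 (SE 0.21, adjusted p = 0.0316 by limma). The other probe sets of MTMR6 gave -1.20 and -0.06, with adjusted p of 0.200 and 0.909.

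KMO codes for kynurenine 3-monooxygenase, which turns kynurenine from tryptophan breakdown toward quinolinic acid. It was 6.39 and 6.77 in AD-GE-RES females and 7.07 and 6.84 in CT-GE-RES females, against 6.60 and 7.19 in AD females and 8.45 and 8.87 in CT females. In males it was 6.61 and 6.68 in AD-GE-RES and 7.81 and 8.31 in CT-GE-RES, against 6.93 and 6.66 in AD and 6.73 and 6.66 in CT. The CT females and the CT-GE-RES males were high, and on the atherogenic diet the values were close together. The difference was -1.01 in females and 0.61 in males, and -1.61 between the sexes (SE 0.24, adjusted p = 0.0316 by limma). The AD-RES males, outside the comparison, also reached 8.50 and 8.47. The probe set without a gene name went the opposite way, most widely on the atherogenic diet. There it was 7.22 and 7.06 in AD-GE-RES females against 6.24 and 6.37 in AD females, and 5.93 and 6.10 in AD-GE-RES males against 6.62 and 6.70 in AD males. On chow it was 6.72 and 6.68 in CT-GE-RES females against 6.62 and 6.56 in CT females, and 6.55 and 6.45 in CT-GE-RES males against 6.66 and 6.90 in CT males. It differed by 0.47 in females and -0.46 in males, with 0.93 between the sexes (SE 0.13, adjusted p = 0.0260 by limma).

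The 3 calls depended on the model and on single animals. None was made with only the 16 arrays in the fit, with array weights, with the 3'/5' ratio as a covariate or with the cell type list means as covariates, and leaving out single animals gave 0 to 539 calls, with 0 when CT animal 4 was left out. The mean 3'/5' ratio also differed by sex and extract, at 2.92 ± 1.10 in supplemented and 2.32 ± 0.96 in unsupplemented females and at 1.98 ± 0.83 in supplemented and 3.01 ± 1.18 in unsupplemented males (SD, n = 4 each). This difference of the ratio between the sexes was not tested.

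**Figure D5:**
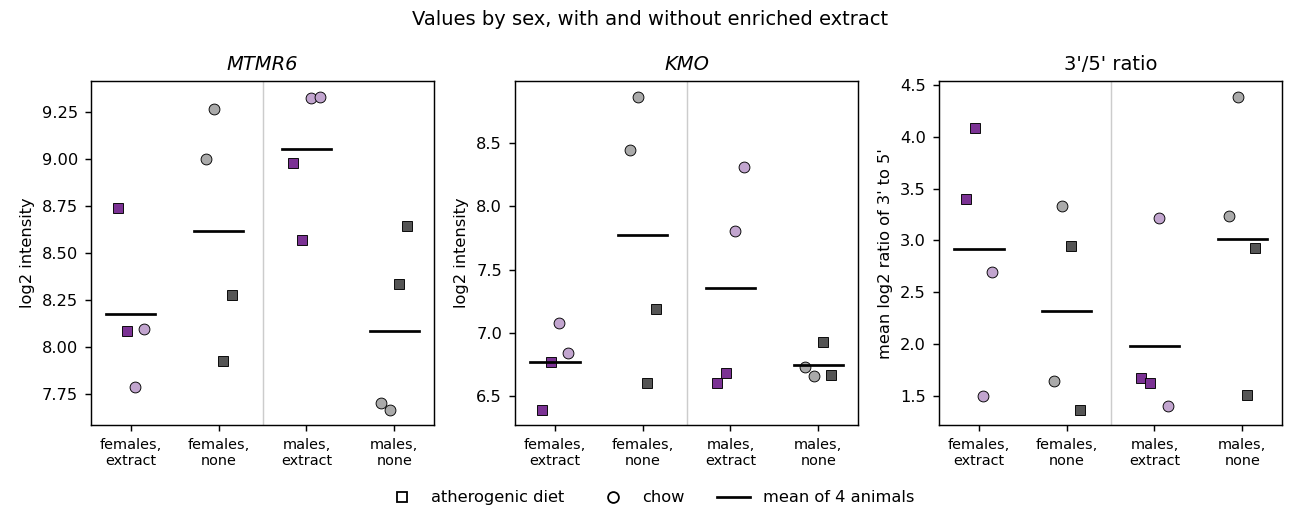
Log2 intensity of MTMR6 and KMO, and the log2 ratio of 3' to 5' signal, in supplemented and unsupplemented females and males; squares are animals on the atherogenic diet and circles on chow. On chow MTMR6 is low in supplemented females at 7.79 and 8.10 and high in supplemented males at 9.32 and 9.33, and the ratio is lower in supplemented males at 1.98 than in unsupplemented males at 3.01 on average.

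Other genes with large differences between the sexes did not pass the test. LAMP2, a glycoprotein of the lysosomal membrane, was 0.40 higher in females and differed by -0.55 in males, a difference of 0.95 between the sexes (adjusted p = 0.143 by limma). CD300C, an activating receptor of myeloid cells, was 9.11, 9.10, 8.71 and 8.68 in supplemented females against 8.74, 9.07, 8.50 and 8.52 in unsupplemented females, and 8.17, 8.47, 7.66 and 7.97 in supplemented males against 9.25, 8.57, 9.33 and 9.77 in unsupplemented males. The supplemented males were below all unsupplemented males, whereas the females overlapped, and the difference between the sexes was 1.36 (adjusted p = 0.159 by limma). PGM2, a phosphoglucomutase, and ADAM17, the protease that releases TNF from cells, differed by 0.38 and 0.25 in females and by -0.36 and -0.45 in males. ZC3H15, a zinc finger protein gene, and LIMD2, a LIM domain protein gene, had -0.24 and -0.33 in females and 0.64 and 0.84 in males (adjusted p = 0.132 each by limma).

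Of the 29 lists, MHC class II and T cell genes had the lowest medians of the difference between the sexes. MHC class II genes, which present peptides to helper T cells, were split 5 to 5 over both sexes, with medians of -0.41 in females and 0.53 in males. For the difference between the sexes 8 of the 10 were at an unadjusted p under 0.05, all below 0 in females minus males, where the share of all genes was 9.25%. SLA-DRA, the alpha chain of the DR molecule, differed by -0.88 in females and 1.41 in males, CD74, the invariant chain, by -0.85 and 1.01, SLA-DQA1 by -0.50 and 0.77 and SLA-DRB1 by -0.32 and 0.84. SLA-DRA, CD74 and SLA-DQA1 were named after their values were seen. SLA-DRB1 was 10.87, 11.32, 12.11 and 11.55 in supplemented females against 11.35, 12.16, 12.21 and 11.41 in unsupplemented females. In males it lay between 11.78 and 12.01 in supplemented animals, against 12.21, 11.05, 11.17 and 9.90 in unsupplemented animals. CT animal 4, a male, was the lowest of all, and the groups overlapped in both sexes. T cell genes had medians of -0.10 in females and 0.54 in males, where 9 of 13 were higher at an unadjusted p under 0.05, against 13.4% of all genes. Erythroid genes had medians of -0.04 in females and -0.74 in males, with 5 of 9 lower at that p in males, against 7.51% of all genes. These values in males rest in part on CT animal 4. Without it the medians in males were 0.39 for MHC class II genes, 0.38 for T cell genes, with 5 of 13 higher at an unadjusted p under 0.05 (6.55% of all genes), and -0.33 for erythroid genes, with 1 of 9 lower at that p (3.9% of all genes). For the difference between the sexes, 6 of the 10 MHC class II genes were then below 0 at that p, against 6.12% of all genes. The MHC class II list mean was at most 0.03 in every compared animal with a 3'/5' ratio of 2.69 or more. In all other compared animals, with ratios of 1.67 or less, it was at least 0.21. The T cell list mean was at most 0.02 and at least 0.07 in the same animals. What the differences between the sexes in these lists owe to the ratio was not tested. The immediate early, monocyte and interferon lists had medians of -0.21, -0.21 and -0.31 in females and of -0.19, -0.25 and -0.29 in males, where the interferon median was -0.01 without CT animal 4.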

How the data were processed

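RNA of PBMNCs of 24 pigs was measured on 24 Affymetrix arrays, and 16 of them entered the comparison. The values were deposited by the authors as 1 linear intensity per probe set and array, and the submitters' processing notes name RMA and GCOS, with versions and roles not given in the sources used here. RMA compresses the intensities of dim probe sets toward a common floor, which shrinks their differences. Log2 was taken of all values. From 24123 probe sets, 124 controls and then the dimmest 25% of the others (mean over all arrays below 3.57) were removed, and 17999 were tested. Names were read from the array's annotation table, with 8540 probe sets of 1 symbol (6033 genes), 168 of several and 9291 of none, and lists used the brightest probe set of a gene.

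With limma 3.58.1 (R 4.3.3) a mean for each of the 6 groups plus a term for sex was estimated from the 24 arrays (17 residual and 3.60 prior degrees of freedom). A model with a mean for each group and sex (12 residual and 3.93 prior) gave the differences within and between the sexes. Tests were two-sided, with Benjamini-Hochberg adjustment over the 17999 probe sets and a threshold of 0.05. The fits shared their spread with the AD-GE and AD-RES arrays. The comparisons on the 2 diets and in the 2 sexes are parts of the same 16 arrays and so are not independent of the average. Array quality was compared by an exact permutation test within diet (Python 3.11.15, numpy 2.4.6, scipy 1.17.1, pandas 2.3.3, with plots by matplotlib 3.10.9). The code was tested on simulated data.

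Named genes were the 10 with the smallest p in each direction (genes past an unadjusted p under 0.05), further genes with an unadjusted p under 0.05 on each diet and the same sign, 4 per sign for the comparisons between diets and between sexes, a panel of 14 genes of which 10 were measured, and up to 3 genes of smallest p in each of 29 lists. The members, lists and alternatives were chosen with earlier results of these data known. Other genes were named after their values were seen, also where a list is described by further members. Alternatives covered the sex term, the arrays in the fit, the filter, scaling, array weights, the variance prior, the 3'/5' ratio or cell type list means as covariates, and each of the 16 arrays left out in turn.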

Additional observations from a re-analysis of the deposited data

Results flagged for a closer look

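Within groups of 4 animals, 15 values of 284 groups examined lay far from the other 3 of their group, where chance gives about 1 in 20. Means of gene lists made up 5 of them. The neutrophil list of CT animal 4 was 1.28, against -0.03 to 0.07 in the other CT animals. The glucocorticoid list of CT-GE-RES animal 4 was 0.21 against -0.29 to -0.23, and the sterol synthesis list of AD-GE-RES animal 2 was 0.15 against -0.04 to -0.03. The aryl hydrocarbon list was 0.39 in AD-GE-RES animal 1 against -0.15 to -0.07, and -0.045 in CT-GE-RES animal 3 against 0.13 to 0.15.

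The other values were single genes. ABCB1 was 6.78 in AD-GE-RES animal 4 against 6.34 to 6.37, CD38 was 4.95 in AD animal 4 against 5.91 to 5.99, and LFNG was 3.91 in CT animal 2 against 4.22 to 4.27. MC2R was 4.92 and ARG2 was 3.41 in CT-GE-RES animal 1, against 4.48 to 4.52 and 3.83 to 3.91. FAM151B was 5.75 in AD-GE-RES animal 4 against 6.29 to 6.40. INHBB was 3.95 and PTGS2 was 4.63 in AD animal 4, against 3.70 to 3.72 and 5.19 to 5.26. ICAM1 was 9.54 and SOD2 was 11.39 in AD-GE-RES animal 1, against 7.84 to 8.08 and 10.46 to 10.59.

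In the main fit, the extract's difference was called as unlike between females and males in MTMR6 (-1.40), KMO (-1.61) and a probe set without a gene name (0.93), each as females minus males. None of these calls was made with only the 16 arrays in the fit, with the 3'/5' ratio as a covariate or without CT animal 4. In MTMR6 and KMO the sexes were apart on chow and not on the atherogenic diet.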

How the results depend on the processing

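Over both diets 0 probe sets were called under every alternative run, with smallest adjusted p between 0.101 and 0.999. The count at an unadjusted p under 0.05 was 1044 in the main fit and 697 with only the 16 arrays in the fit. It was 638 with the lowest 50% left out, 651 with cell type list means as covariates and 1867 without CT animal 4 and AD-GE-RES animal 1. With single animals left out it lay between 642 (without CT animal 4) and 2434 (without AD-GE-RES animal 1). It was 1609 without CT animal 2, 1599 without AD animal 3 and 656 without CT-GE-RES animal 3. Of these probe sets 472 were higher and 572 lower, against 313 and 560 with repeated quantile normalization, 553 and 441 with median centring and 409 and 229 with the stricter filter.

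In males 2 probe sets were called with the lowest 50% left out, 2 with median centring, 2 with the trended prior, 1 with the 3'/5' ratio as a covariate and 2 without CT animal 4 and AD-GE-RES animal 1, and 0 to 1757 with single animals left out. The 1757 came without CT animal 3, when CT males were animal 4 alone, assumed to vary like the other groups. In females the count was 0 to 13 with single animals left out, 13 of them without AD-GE-RES animal 2. For the difference between the sexes it was 0 with only the 16 arrays, 1 with repeated quantile normalization, 0 with array weights, 0 with the 3'/5' ratio, 0 with cell type list means, and 0 to 539 with single animals left out (539 without CT animal 3, 479 without AD-GE-RES animal 2). The cause was not tested.

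Of 3506 values of named genes 40 had the opposite sign, in 10 genes whose differences over both diets were small against their errors. With cell type list means GLB1 was 0.092, LAMP2 0.011, KMO 0.039, IL1B 0.16 and CD40 -0.0079. With repeated quantile normalization PGM2 was -0.028 and TNF -0.023, and with the 3'/5' ratio TNF was -0.0067. Without CT animal 4 and AD-GE-RES animal 1, ABCA1 was -0.10, TNF -0.10, CCL2 -0.12 and SLA-DQB1 -0.012. With single animals left out the ranges were -0.084 to 0.061 for GLB1, -0.20 to 0.044 for LAMP2, -0.046 to 0.093 for PGM2, -0.40 to 0.031 for KMO, -0.040 to 0.21 for ABCA1, -0.36 to 0.16 for IL1B, -0.17 to 0.12 for TNF, -0.14 to 0.29 for CCL2 and -0.037 to 0.27 for SLA-DQB1.

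Leaving CT animal 4 out of the lists on chow, in males and between the sexes was chosen after seeing the data. The neutrophil median between the sexes was then -0.040, against 0.11 with it.

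No paired analysis was possible because the labels pair no animals between groups, and replicate numbers were given in accession order. Each sex and group held 2 animals, dim probe sets carry compressed differences, and 9291 probe sets had no gene name.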
